A study of Mus musculus with 8 samples.

Results

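The m6A reader genes code for proteins that bind RNA according to its N6-methyladenosine (m6A) marks. The set was fixed by symbol and holds 9 of the 27710 genes counted: Ythdf1, Ythdf2, Ythdf3, Ythdc1, Ythdc2, Igf2bp2, Igf2bp3, Hnrnpa2b1 and Hnrnpc. All 9 were found in each of the 8 libraries. Total RNA came from mouse bone marrow cells depleted of mature lineages and cultured with added cytokines. The cells were WT or Vav-iCre+; Alkbh5fl/fl, in which a recombinase driven in blood cells removes the demethylase gene Alkbh5. Per genotype there were 3 libraries from cultures given 100 µM 4-thiouridine (s4U), a nucleoside that marks RNA made after its addition, for 2 h (fed), and 1 from a culture given no agent (unlabelled). Per the labels the chemistry that recodes s4U was applied to all RNA. The labels do not state age or sex, nor whether WT animals carried Vav-iCre.

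The m6A mark is written onto RNA by a methyltransferase complex built on METTL3 and METTL14, and ALKBH5 and FTO can remove it. Readers carry out what the mark sets in motion. YTHDF1, YTHDF2 and YTHDF3 are cytoplasmic proteins that hold the methylated base in their YTH domain, and YTHDF2 is known for bringing marked RNA to the CCR4-NOT deadenylase. YTHDC1 is nuclear and acts in splicing and export, while YTHDC2 is an RNA helicase known from meiosis. IGF2BP2 and IGF2BP3 are associated with stabilising marked RNA, and HNRNPA2B1 and HNRNPC are abundant nuclear proteins, the latter binding U-rich stretches that m6A makes accessible. In blood, YTHDF2 is known for limiting the expansion of stem cells.

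Depth and identity of the libraries were checked first. Gene counts totalled 5723245 to 8615997 per library. Alkbh5 had 1061 to 1479 counts in the 4 WT libraries and 0 or 1 count in the 4 Alkbh5-deficient libraries. The defining markers of blood cells (3 of 3) and of stem and progenitor cells (6 of 6) had at least 10 counts in every library. So did those of erythroid cells (4 of 4), mast cells and basophils (3 of 3), monocytes and macrophages (3 of 3), neutrophils (3 of 3) and megakaryocytes (2 of 2). For B cells, T and NK cells and stroma it was 2 of 3 each. This level therefore does not single out progenitors. Stromal markers summed to between 7.33 and 1213 CPM (counts scaled to library size) across fed libraries. Xist and the Y-linked Ddx3y were both abundant in each unlabelled library, whereas a fed library had one or the other. Fed replicate 2 had 17471 (WT) and 13896 (deficient) counts of Xist and 0 of Ddx3y. Fed replicates 1 and 3 of both genotypes had 0 to 2 counts of Xist and 200 to 552 of Ddx3y. Gm26917, a repeat gene, accounted for 14.2% of WT fed replicate 3 and for 6.33% to 8.34% of the other libraries. In bulk RNA, fewer cells of a type and less RNA per cell cannot be told apart.

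Several readers have close relatives in the genome, so their sequences were compared before their counts. The coding sequences of the YTHDF paralogs were 70.4% (Ythdf1 and Ythdf2), 71.4% (Ythdf1 and Ythdf3) and 71.9% (Ythdf2 and Ythdf3) identical over aligned bases. Their longest stretch without a difference was 22 bases between Ythdf1 and Ythdf2 and 17 bases in the other pairs. The 90-base windows shown here, aligned without gaps, hold the whole of that 22-base stretch, and capitals mark the 36 positions at which the 3 are not all alike. They cover coding bases 750 to 839 of Ythdf1, 684 to 773 of Ythdf2 and 714 to 803 of Ythdf3 (GENCODE M21 transcripts, GRCm38, written 5′ to 3′ with T).
Ythdf1: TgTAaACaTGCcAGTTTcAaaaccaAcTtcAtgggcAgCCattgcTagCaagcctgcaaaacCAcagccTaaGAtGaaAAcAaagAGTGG
Ythdf2: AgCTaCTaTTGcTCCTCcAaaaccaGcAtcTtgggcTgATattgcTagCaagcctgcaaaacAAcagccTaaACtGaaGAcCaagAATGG
Ythdf3: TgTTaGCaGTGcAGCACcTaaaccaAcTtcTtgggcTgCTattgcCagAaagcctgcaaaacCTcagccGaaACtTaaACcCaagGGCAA
Igf2bp2 and Igf2bp3 were 71.2% identical, with a longest shared stretch of 17 bases. The labels do not state the read length.

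Retrocopies, pseudogenes made from spliced RNA, were closer to their parent genes than the paralogs were to each other. The copy with most reads was Gm12696 (chromosome 4, 97521428 to 97522332, minus strand), 97.6% identical to the Hnrnpc transcript over 589 bases. The windows below are the part of the Hnrnpc coding sequence, bases 838 to 927, in which the copy differs most, with 5 differing positions in capitals.
Hnrnpc: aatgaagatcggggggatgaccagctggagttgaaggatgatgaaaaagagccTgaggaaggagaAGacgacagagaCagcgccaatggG
Gm12696: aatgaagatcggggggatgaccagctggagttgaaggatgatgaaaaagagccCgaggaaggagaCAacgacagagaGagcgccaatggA
Gm12696 had 611 counts over the 8 libraries against 22486 for Hnrnpc, or 2.72%. Ythdf2 had a copy on chromosome X, Gm8401, 96.3% identical over 1740 bases, with 17 counts in all (0.302% of those of Ythdf2). The copy of Hnrnpa2b1 with most reads, Gm5778, had 32 counts (0.0433%). Reads assigned to the copies that were counted were therefore few beside those of the parents. Other copies were not among the genes counted, such as Gm6823, 95.2% identical to Ythdf2 over 1840 bases.

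Exons of 2 readers overlap those of a neighbouring gene. Ythdc1 (chromosome 5, 86804221 to 86836659, plus strand) shares 631 exonic bases with the non-coding gene Gm43055 on the same strand. The deposited tables count reads in both apart from Ythdc1, and these amounted to 14.1% to 17.0% of the sum in every library. Igf2bp3 (chromosome 6, 49085223 to 49214957, minus strand) shares 1529 exonic bases with Malsu1 on the opposite strand, and the labels do not state the strand setting of the counting. The exons of the other 7 readers overlap no annotated gene. Of these, Ythdf1 lies on chromosome 2 (180904377 to 180920949), Ythdf2 on chromosome 4 (132184912 to 132212303), Ythdf3 on chromosome 3 (16183212 to 16217037) and Igf2bp2 on chromosome 16 (22059009 to 22163299). Hnrnpa2b1 lies on chromosome 6 (51460932 to 51469894) and Hnrnpc on chromosome 14 (52073377 to 52104028).

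Levels of the 9 genes were far apart, as the plot of levels per length shows. Per kilobase of annotated exons, the nuclear Hnrnpa2b1 led with 190 ± 9.42 CPM per kb (SD, n = 8 libraries) and Hnrnpc followed with 90.3 ± 16.2. Ythdf1 stood at 24.5 ± 1.88, Ythdf3 at 23.7 ± 4.06 and Ythdf2 at 20.7 ± 3.22 CPM per kb. These neighbours were not separated: their ranges over libraries overlapped, and Ythdf1 was above Ythdf3 in 3 of 8 libraries. Ythdc1 followed with 15.7 ± 2.36, Ythdc2 with 4.02 ± 1.25, Igf2bp2 with 0.333 ± 0.126 and Igf2bp3 with 0.0643 ± 0.0390 CPM per kb. Among 14831 genes of known length with enough reads to be tested over the 8 libraries, Hnrnpa2b1 was above 98.7%, Ythdf1 above 86.1% and Igf2bp2 above 6.05%. The place of Ythdc1 depended on the length used, since its annotated exons add up to 13.7 kb while its longest transcript has 6.31 kb. Per kilobase of longest transcript Ythdc1 reached 34.0 ± 5.10 CPM and took place 3, ahead of the YTHDF genes.

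**Figure D1:**
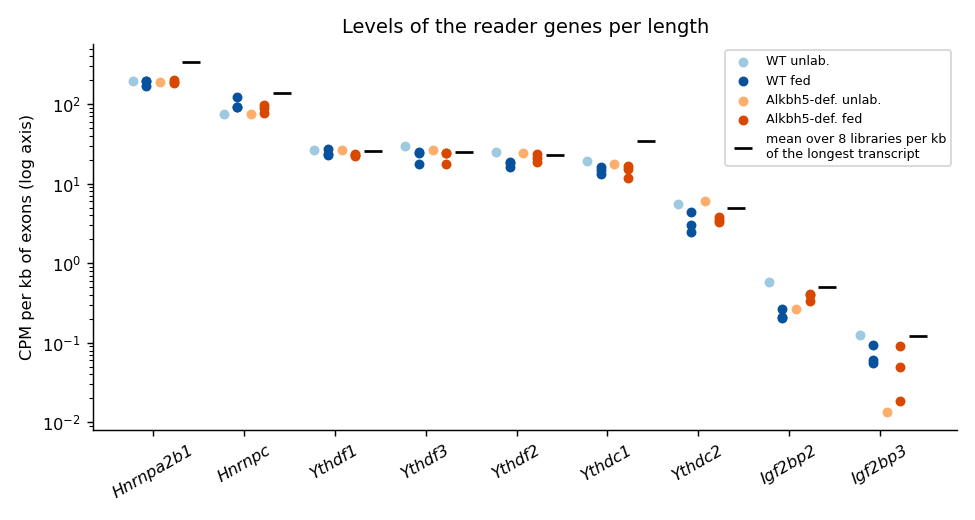
TMM-scaled CPM per kilobase of annotated exons (log axis) for each reader gene, 1 point per library and colour per group, with black dashes for the 8-library mean per kilobase of the longest transcript. Hnrnpa2b1 and Hnrnpc sit above all YTH genes, and the dash of Ythdc1 at 34.0 lies above its points.

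The genotype comparison asked whether readers differ in level once the m6A demethylase is lost. In the fed libraries 0 of the 8 readers tested passed the threshold (edgeR quasi-likelihood test, adjusted p under 0.05), where 0.00750% of the 13342 genes tested did, Alkbh5 alone. Igf2bp3 was too low to be tested. None of the 8 had an unadjusted p under 0.05 (1.13% of all genes), and DESeq2 called 0 readers as well. Of the 8, 4 had a positive log2 fold change, as 50.2% of all genes did, and 4 a negative one, with a median of 0.00 beside 0.00 over all genes.

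Ythdf2, the reader tied to RNA decay, had 86.7, 82.5 and 73.4 CPM in WT fed replicates 1 to 3 and 107, 85.7 and 97.2 CPM in Alkbh5-deficient ones. Deficient libraries were higher in each same-numbered pair, by 0.31, 0.05 and 0.41 on the log2 scale, but WT replicate 1 lay above deficient replicate 2, so the groups overlapped. The log2 fold change was 0.25 ± 0.15 (SE), with a 95% interval of 93.1% to 152% of WT (edgeR adjusted p = 1.00). In the unlabelled pair Ythdf2 stood at 113 CPM in WT and 111 CPM in deficient cells, a ratio of 98.6% with an exact counting interval of 89.95% to 108%. Intervals of this kind, which cover counting error between single libraries only, included equal levels for Ythdf1, Ythdf2, Ythdc1, Ythdc2 and Hnrnpc. They did not for Ythdf3, at 91.3% of WT (84.4% to 98.8%), or Hnrnpa2b1, at 96.1% (93.5% to 98.7%), nor for the low Igf2bp2 and Igf2bp3 below.

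Its paralogs lay closer to no difference. Ythdf1, associated with translation of marked RNA, had 77.6, 76.8 and 89.4 CPM in WT and 78.7, 75.6 and 74.8 CPM in deficient fed libraries. WT replicate 3 was the high library, and the log2 fold change was -0.09 ± 0.14 (SE). Ythdf3, which works with the other two, had 95.2, 135 and 131 CPM in WT and 95.6, 131 and 129 CPM in deficient fed libraries. Replicate 1 of both genotypes was low and the other 4 libraries lay together. The log2 fold change of Ythdf3 was -0.02 ± 0.20 (SE), an interval of 71.5% to 135% of WT.

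Ythdc1, the nuclear reader, followed the same split by replicate number. It had 182, 223 and 204 CPM in WT fed replicates 1 to 3 and 162, 210 and 229 CPM in deficient ones, again with both replicates 1 below the other 4 libraries. Those 2 libraries also had fewer reads outside genes, 38.3% and 37.6% of all counts against 48.9% to 50.3% in the other fed libraries, and the part of this in the levels of Ythdf3 and Ythdc1 was not tested. The log2 fold change of Ythdc1 was -0.02 ± 0.18 (SE), an interval of 73.7% to 131%. The helicase gene Ythdc2 had 27.0, 38.9 and 21.8 CPM in WT and 29.5, 31.1 and 34.0 CPM in deficient fed libraries. WT libraries spread over the whole range of the deficient ones, and the log2 fold change was 0.10 ± 0.24 (SE), from 73.2% to 157% of WT.

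The pair of abundant nuclear readers likewise overlapped between genotypes. Hnrnpa2b1 had 1281, 1303 and 1124 CPM in WT and 1248, 1216 and 1315 CPM in deficient fed libraries, a log2 fold change of 0.02 ± 0.15 (SE) with an interval of 79.8% to 129% of WT. Hnrnpc had 400, 402 and 537 CPM in WT and 331, 418 and 385 CPM in deficient fed libraries. WT replicate 3, the library rich in repeat reads, was the high one, and the log2 fold change was -0.24 ± 0.18 (SE, interval 63.7% to 112% of WT). In the unlabelled pair Hnrnpc had 329 and 322 CPM.

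Igf2bp2, known for binding messenger RNAs such as that of its namesake growth factor, was the 1 reader whose fed groups did not overlap. Its deficient group was higher, as in 2.62% of all tested genes (3.06% had the deficient group lower). It had 9, 17 and 8 counts in WT and 20, 18 and 24 counts in deficient fed libraries, or 1.498, 1.96 and 1.55 CPM against 2.99, 2.46 and 3.004 CPM. All 3 deficient libraries were above all 3 WT ones, with a log2 fold change of 0.73 ± 0.37 (SE) and an interval of 92.0% to 299% of WT (edgeR unadjusted p = 0.0832, adjusted p = 1.00). The pooled counts, 62 against 34, gave a ratio of 1.65 (exact interval 1.07 to 2.58), which covers counting error only. The unlabelled pair went the other way, with 33 counts in WT and 18 in deficient cells, a ratio of 45.9% (24.3% to 83.9%), and an additive fit over all 8 libraries gave 0.23 for genotype (unadjusted p = 0.570, edgeR). Depth limits this gene: no library held more than 33 of its reads.

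Igf2bp3, a relative best known from fetal tissues and tumours, was close to the floor of detection. It had 3, 4 and 4 counts in WT fed, 1, 3 and 6 counts in deficient fed, 8 in the WT unlabelled and 1 in the deficient unlabelled library. The pooled fed ratio of deficient to WT was 0.820 (exact interval 0.312 to 2.13), and that of the unlabelled pair, 1 count against 8, was 0.105 (0.00237 to 0.784). A difference within the fed interval was not detectable at this depth. The unlabelled interval left out equal levels, but it rests on 1 library per genotype and covers counting error only.

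**Figure D2:**
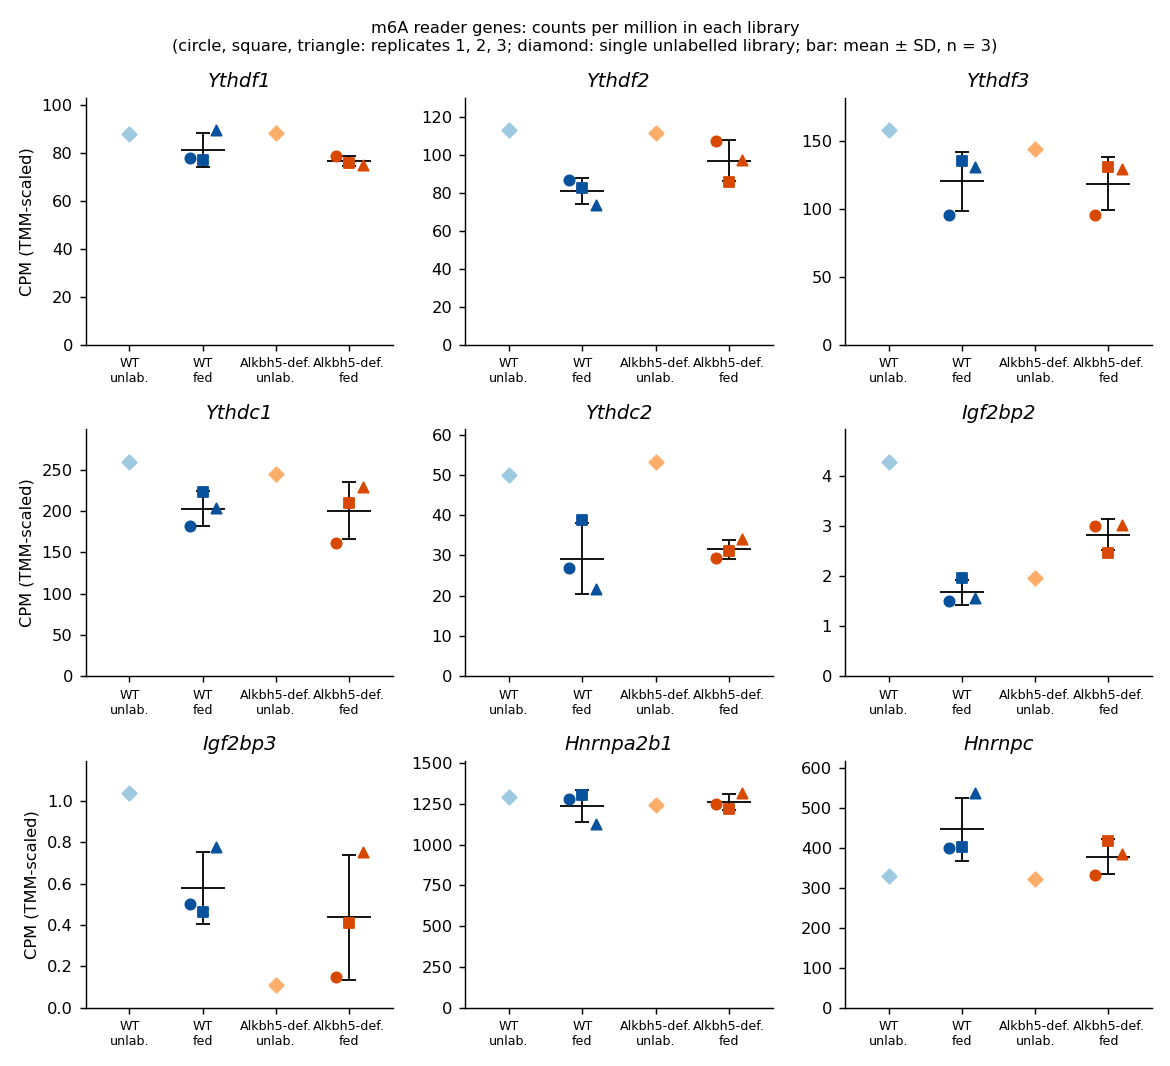
TMM-scaled CPM (linear axes from 0) of the 9 reader genes in each library, by group, with bars for the mean ± SD of 3 fed libraries and diamonds for the single unlabelled ones. Fed groups of the 2 genotypes overlap in every panel but that of Igf2bp2, and the diamonds of Ythdf2, Ythdf3, Ythdc1 and Ythdc2 lie above all fed points.

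Whether the genotype difference of a reader itself differed between fed and unlabelled cells was tested as an interaction over 8 libraries. None of the 8 tested readers passed (edgeR adjusted p = 1.00 for each), as 0% of 14988 genes did, and DESeq2 called 0 genes. Igf2bp2 had an interaction of 1.85 ± 0.72 (SE) on the log2 scale, with unadjusted p = 0.0308 by edgeR. An unadjusted p under 0.05 was reached by 0.160% of genes. Igf2bp2 ranked 11 of 14988 by p. Behind the value stand opposite orders: within WT, all 3 fed libraries were below the unlabelled 4.28 CPM, and within deficient cells all 3 were above 1.96 CPM. Each side rests on 1 unlabelled library.

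A share within a library needs no scaling between libraries, so the split of YTHDF reads between the paralogs was compared as well. Ythdf2 took 33.4%, 28.1% and 25.0% of YTHDF reads in WT and 38.1%, 29.4% and 32.3% in deficient fed libraries. The share was higher in deficient cells in each same-numbered pair, by 4.68, 1.30 and 7.28 percentage points, while the groups overlapped. The mean difference of 4.42 points gave an exact two-sided permutation p = 0.3, or 0.4 adjusted over the 4 shares compared, where 3 against 3 libraries cannot go below 0.1. The same-numbered pairs also had 1 sign for the other shares, lower in deficient cells for Ythdf1 (-1.94, -0.22 and -5.60 points) and Ythdf3 (-2.74, -1.08 and -1.68) and higher for Igf2bp2 (20.2, 4.76 and 13.3). Flipping the signs of the pairs gave an exact p = 0.25 for each of the 4 shares, the smallest that 3 pairs allow, and the 3 YTHDF shares of a library add up to the whole. Ythdf1 averaged 28.8 ± 2.37% in WT and 26.2 ± 1.57% in deficient fed libraries (SD, n = 3 each, exact permutation p = 0.2). Ythdf3 had the highest mean share, 42.3 ± 4.94% and 40.5 ± 5.76% (SD, n = 3 each, exact permutation p = 0.6). In the unlabelled libraries Ythdf2 took 31.5% in WT and 32.4% in deficient cells, with exact binomial intervals of 29.8% to 33.3% and 30.7% to 34.0%. Igf2bp2 made up 74.2 ± 7.18% of the reads of its pair with Igf2bp3 in WT and 87.0 ± 7.70% in deficient fed libraries (SD, n = 3 each, exact permutation p = 0.2), from only 12 to 30 reads per library.

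**Figure D3:**
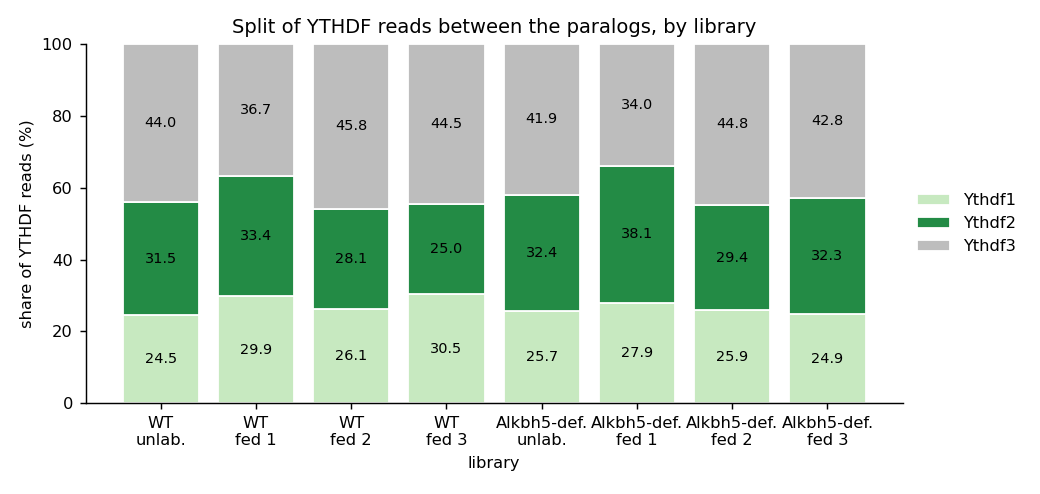
Stacked bars of the share of Ythdf1, Ythdf2 and Ythdf3 in their summed reads (%), 1 bar per library. The Ythdf2 part runs from 25.0% in WT fed replicate 3 to 38.1% in Alkbh5-deficient fed replicate 1.

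Fed libraries were then compared with unlabelled ones, adjusting for genotype. Since the sex-linked RNAs differed as given above, feeding cannot be told apart from the source of the cells. No reader passed the threshold in edgeR, where 0.0267% of 14988 genes did. DESeq2 called 1 of 7 readers, Ythdc2 (adjusted p = 0.0368), among 557 of the 8921 genes to which it gave an adjusted p. By edgeR, 7 of the 8 tested readers had a negative log2 fold change, against 47.9% of all genes, and their median was -0.33 beside 0.03 over all genes.

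The YTH genes made up most of this. Ythdf2, Ythdf3, Ythdc1 and Ythdc2 were lower in all 6 fed libraries than in both unlabelled ones, 4 of the 9 readers, as 16.2% of all tested genes were. This share rose with gene length and U content, as given below. Ythdc2 stood furthest apart, with 50.0 and 53.3 CPM in the WT and deficient unlabelled libraries against 21.8 to 38.9 CPM in the fed ones. Its log2 fold change was -0.76 ± 0.20 (SE), or 58.9% of unlabelled with an interval of 43.2% to 80.4% (edgeR unadjusted p = 0.00361, adjusted p = 0.165). Within WT libraries alone the value was -0.77 and within deficient libraries -0.74, each resting on 1 unlabelled library. Ythdf2 had 113 and 111 CPM unlabelled against 73.4 to 107 CPM fed, a log2 fold change of -0.34 ± 0.14 (SE, edgeR unadjusted p = 0.0377, adjusted p = 0.233). These were the 2 readers with an unadjusted p under 0.05, a level that 10.0% of genes reached with fed lower and 9.53% with fed higher.

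The other YTH genes had an unadjusted p above 0.05. Ythdf3 had 158 and 144 CPM unlabelled against 95.2 to 135 CPM fed, a log2 fold change of -0.34 ± 0.18 (SE). Ythdc1 had 260 and 245 CPM against 162 to 229 CPM, a log2 fold change of -0.32 ± 0.16 (SE). Ythdf1 overlapped, with 87.8 and 88.3 CPM against 74.8 to 89.4 CPM, since WT fed replicate 3 lay above both unlabelled libraries, and the value of Ythdf1 was -0.16 ± 0.13 (SE).

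The HNRNP readers did not share this order. Hnrnpc was higher in all 6 fed libraries, 331 to 537 CPM, than in the unlabelled ones at 329 and 322 CPM, as 14.7% of all tested genes were. Its log2 fold change was 0.33 ± 0.17 (SE, edgeR adjusted p = 0.308), and the lowest fed library, at 331 CPM, was close to the WT unlabelled one. For the copy Gm12696 the value was 0.71 ± 0.22 (SE, adjusted p = 0.173 by edgeR), and adding its reads to Hnrnpc gave 0.34. Hnrnpa2b1 stood at 1291 and 1241 CPM unlabelled and 1124 to 1315 CPM fed, a log2 fold change of -0.02 ± 0.13 (SE) with an interval of 80.0% to 121%. Igf2bp2 was at -0.50 ± 0.43 (SE), and without the WT unlabelled library the value was 0.52. Pooled counts of Igf2bp3, 21 fed and 9 unlabelled, gave 0.943 as the ratio (exact interval 0.414 to 2.34).

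**Figure D4:**
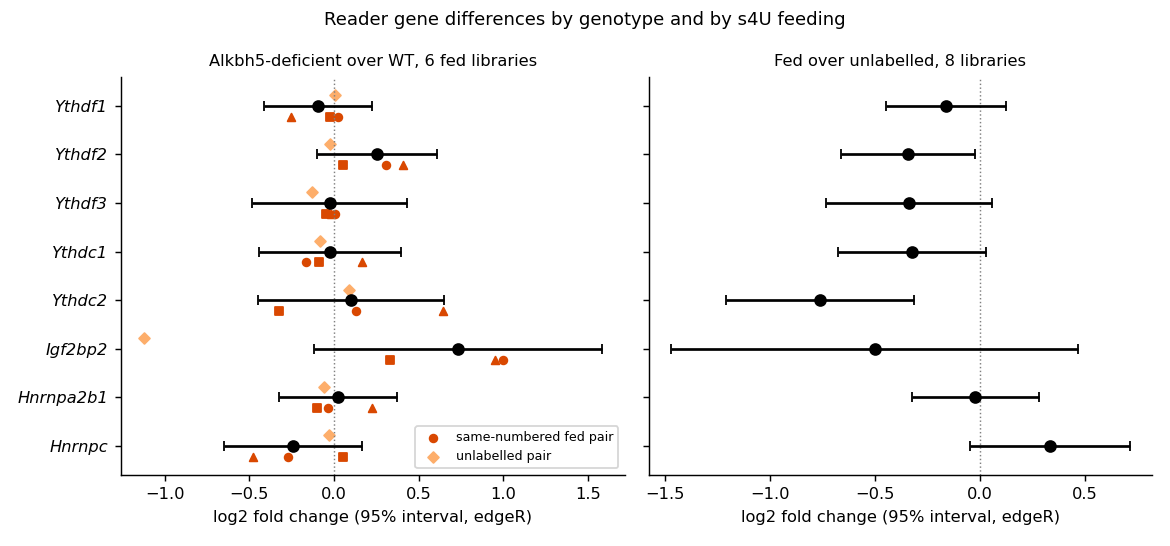
Log2 fold changes of the 8 tested readers with 95% intervals from edgeR (black) for genotype in fed libraries (left) and for feeding over 8 libraries (right), with same-numbered fed pairs and the unlabelled pair as coloured points on the left. Every genotype interval includes 0, and in the feeding panel those of Ythdf2 and Ythdc2 do not.

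Gene length and base content moved with the feeding contrast across the transcriptome, and readers differ in both. Across 12002 protein-coding genes, none of them an independent replicate, the feeding value had a Spearman rho of -0.40 with exonic length and -0.43 with the U content of the coding transcript. With genes cut into 5 equal classes, the median ran from 0.30 in the shortest class to -0.22 in the longest, and from 0.27 in the class poorest in U to -0.26 in the richest. The share of genes lower in all fed than in both unlabelled libraries ran from 2.92% in the shortest class to 36.4% in the longest. By U content it ran from 3.33% in the poorest class to 36.1% in the richest. Ythdf2 was in class 3 of length and class 4 of U content, with shares of 13.3% and 22.25%. Ythdc2 was in class 5 of both (8.88 kb of exons, 29.0% U), Ythdf3 in class 5 of U content (31.6%) and Ythdc1 in class 5 of length (13.7 kb). Hnrnpc, at 30.3% U, was in class 5 of U content and stood above 0.

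Taking each trend out of every library in turn changed the readers unevenly. With the length trend removed Ythdc1 went to -0.03 and Ythdc2 to -0.58. With the U trend removed Ythdf3 went to 0.04, Ythdf2 to -0.17, Ythdc2 to -0.52 and Hnrnpc to 0.67. No reader passed the threshold in either fit (edgeR adjusted p from 0.212 to 0.942). Length and U content are themselves properties of the same transcripts, and they were removed separately.

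**Figure D5:**
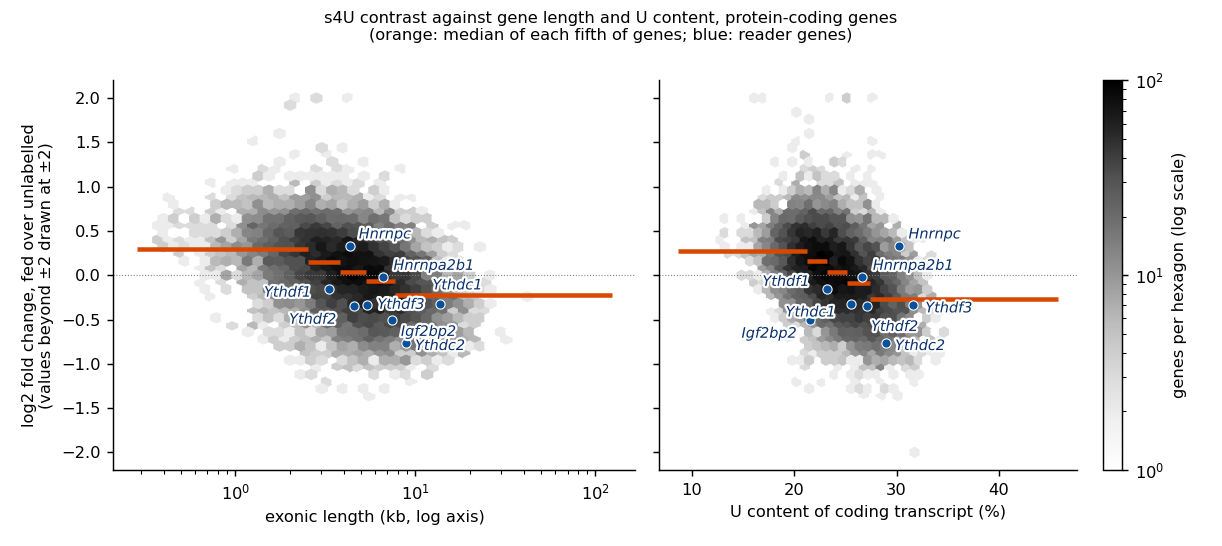
Log2 fold change of fed over unlabelled libraries against exonic length (left, log axis) and U content (right) for protein-coding genes, as hexagons shaded by number of genes, with orange lines for the median of each of 5 classes and blue points for readers. The medians fall from 0.30 to -0.22 with length and from 0.27 to -0.26 with U content; Ythdc2 lies below and Hnrnpc above the median of its class.

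Summed cell type markers also differed between fed and unlabelled libraries for some lists. Stem and progenitor markers summed to 4552 to 8610 CPM in fed libraries and to 3675 and 4343 CPM in unlabelled ones. Most of that sum was Mpo, a granule enzyme gene at 3017 to 8045 CPM across libraries, while Kit, Cd34, Flt3, Gata2 and Myb were each at 389 CPM or less, so the sum does not describe the list as a whole. Neutrophil markers summed to 990.5 to 2183 against 788 and 878 CPM, monocyte and macrophage markers to 277 to 546 against 244 and 251 CPM, T and NK cell markers to 34.3 to 45.1 against 27.1 and 33.2 CPM, and megakaryocyte markers to 95.02 to 288 against 91.6 and 86.4 CPM. In WT fed replicate 3, S100a8, Ltf, Adgre1, Cd68 and Cd3g each had their lowest CPM of the 8 libraries. Elane and Nkg7 were lowest in the WT unlabelled library, so these sums do not describe their lists as a whole either. Sums of blood cell, erythroid, B cell, mast cell and stromal markers overlapped. No listed marker was at 0 in all libraries. The part of cell make-up in the reader values was not tested.

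The rest of the m6A pathway was read from lists of genes. Between genotypes 0.00750% of all tested genes passed the threshold. Among other reported readers (Fmr1, Fxr1, Fxr2, Rbmx, Prrc2a, Elavl1, Lrpprc and Eif3a, with Igf2bp1 too low to test) 0 of 8 passed between genotypes, with a median of 0.05, and the smallest p belonged to Fxr2 at -0.20 ± 0.17 (SE). Of 9 writer genes 0 passed, with a median of 0.02, and Wtap, which holds METTL3 and METTL14 in nuclear speckles, was at 0.39 ± 0.28 (SE). Of the 2 erasers Alkbh5 fell (edgeR adjusted p = 7.91e-06), the gene deleted by design. Of 15 decay partners of the YTHDF proteins 0 passed, and 11 values were above 0, as 50.2% of those of all genes were. Their median was 0.09, with Cnot6l, a deadenylase subunit, at 0.30 ± 0.23 (SE). Of 5 nuclear partners of YTHDC1 0 passed, with Srsf3 at -0.16 ± 0.18 (SE). Of 22 further HNRNP genes 0 passed, with a median of -0.02 and Hnrnpa0 at -0.56 ± 0.29 (SE). These values rest on few libraries: without WT fed replicate 3 Hnrnpa0 was at -0.14, Wtap at 0.18, Cnot6l at 0.16, Fxr2 at -0.07 and Srsf3 at -0.06. Without deficient fed replicate 1 Wtap was at 0.17, Fxr2 at -0.12 and Srsf3 at -0.04, and without WT fed replicate 2 Cnot6l was at 0.56. Leaving out deficient fed replicate 2 moved Srsf3 to -0.26 and Fxr2 to -0.29.

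In the feeding contrast these lists also held 0 genes past the threshold in edgeR, which 0.0267% of all tested genes passed. Writers had 8 of 9 values below 0, as 47.9% of all genes did, and a median of -0.22. Mettl14, the RNA-binding partner of METTL3, was at -0.63 ± 0.20 (SE, edgeR adjusted p = 0.174). Decay partners had 7 of 15 genes lower in all fed than in both unlabelled libraries, beside 16.2% of all genes, a share that rose with length and U content. Cnot4, a ubiquitin ligase linked to CCR4-NOT, had 69.1 and 60.5 CPM unlabelled, 31.9 ± 6.51 CPM in WT fed and 35.1 ± 7.66 CPM in deficient fed libraries (SD, n = 3 each). The feeding value of Cnot4 was -0.95 ± 0.20 (SE, adjusted p = 0.165 by edgeR). DESeq2 called Cnot4 (adjusted p = 0.0147), among 557 of 8921 genes. So did edgeR without the low-count filter (adjusted p = 0.0498), among 37 of 26006 genes. Other reported readers had a median of -0.09 with Fxr1 at -0.39 ± 0.16 (SE), and nuclear partners of YTHDC1 one of -0.12 with Srsf10 at -0.39 ± 0.21 (SE). Fto, the other eraser, stood at 0.21 ± 0.14 (SE). The 22 HNRNP genes had a median of 0.11, with 8 higher in all fed libraries (14.7% of all genes) and 4 lower (16.2%), and Syncrip at -0.66 ± 0.24 (SE).

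Finally, the gene most like each reader across the 8 libraries was taken as the 1 of 6875 protein-coding genes of at least 20 CPM with the highest Pearson r of log2 CPM. These were Ambra1 for Ythdf1 (r = 0.987), Acap2 for Ythdf2 (r = 0.988), Naa25 for Ythdf3 (r = 0.987), Tut7 for Ythdc1 (r = 0.992) and Tlk1 for Ythdc2 (r = 0.995). Utp14a was nearest to Hnrnpa2b1 (r = 0.976), C1qbp to Hnrnpc (r = 0.995) and D5Ertd579e to Igf2bp2 (r = 0.860). The points share their libraries, with whatever else differs between these, and a best value among 6875 candidates over 8 points is high by selection, so r is a description here. Tut7, which adds uridines to RNA ends, had 270 and 263 CPM unlabelled and 173 to 242 CPM fed. C1qbp, a mitochondrial matrix protein gene, had 117 and 116 CPM unlabelled and 122 to 196 CPM fed.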

How the data were processed

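RNA of 8 libraries was analysed (4 WT, 4 Alkbh5-deficient). Each file deposited by the authors holds whole-number read counts per gene. The submitters' processing notes name HTSeq, HISAT2, STAR, Picard, cutadapt and DESeq2, and the builds GRCm38 and mm10, with neither versions nor roles. Each file also has 928 entries naming no gene, kept out of library sizes and tests; reads in no gene made up 37.6% to 52.1% of counts. Counts were tested here with edgeR 4.0.16 in R 4.3.3 (TMM scaling, filterByExpr, the quasi-likelihood test with robust fitting, Benjamini-Hochberg adjustment over all genes at 0.05); SE is the log2 fold change divided by the root of F. CPM values are TMM-scaled over 8 libraries. DESeq2 1.42.0 and limma 3.58.1 served as alternatives. Lengths and positions came from GENCODE M21, which held 27070 of 27710 symbols, and copies were found with BLAST+ 2.17.0 (at least 200 aligned bases). The labels do not say whether replicates are separate animals. By the sex-linked RNAs, fed replicate 2 came from other animals than fed replicates 1 and 3 of its genotype. Whether replicates 1 and 3 are separate animals is not known. The p-values reflect only how these samples vary, which may in part be technical. Replicate numbers come from the labels. Deviations of same-numbered libraries correlated across genes at r = 0.62, 0.26 and 0.16, all above 0.1. On that bar the numbers were taken as pairs and a replicate block was fitted as an alternative. WT 2 with deficient 3 gave 0.29 and WT 3 with deficient 2 gave 0.28, both above same-numbered pairs 2 and 3. These correlations set replicate 1 apart but cannot tell pair 2 from pair 3. All 28 pairs of libraries differed by more than sampling noise. In simulated data edgeR recovered, between genotypes (13342 genes), 14 of 50 genes at a log2 change of 1, 14 at -1, 46 at 2 and 39 at -2, and for feeding (14988 genes) 10, 16, 40 and 36, with 8 false calls each. The named genes are all readers, the nearest gene to each and, from each list, genes past the threshold or that with the smallest p. Readers and lists were chosen with earlier results of these data known. Intervals on counts are exact 95% intervals for counting error only.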

Additional observations from a re-analysis of the deposited data

How the results depend on the processing

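Readers past the threshold numbered 0 in every setting run for genotype and interaction, and for feeding 1 with DESeq2 and 0 otherwise. With the replicate block the genotype fit called 1 gene and 0 readers, with Ythdf2 at 0.25 and Igf2bp2 at 0.73, the additive fit put Igf2bp2 at 0.23, and the block changed no call on a reader. Between genotypes, against 1 gene called, there were 2 without a low-count filter, 2 with DESeq2 and 6 with DESeq2 and the block. For feeding, against 4, there were 37 without a filter, 557 with DESeq2, 1 with the length trend removed, 0 within either genotype and 0 to 2 with 1 library left out (0 when the library left out was WT unlabelled, deficient unlabelled, or replicate 3 of the WT or of the deficient fed group). Values near 0 turned sign. Between genotypes, with 1 library left out, Ythdf3 ran from -0.1681 to 0.1111, Ythdc1 from -0.1388 to 0.1133, Ythdc2 from -0.0641 to 0.3719 and Hnrnpa2b1 from -0.0351 to 0.0684. Without both replicates 1 Ythdc1 was at 0.0374, without both replicates 2 it was at 0.0338 and Ythdf3 at 0.0067, and without both replicates 3 Ythdc2 was at -0.1262 and Hnrnpa2b1 at -0.0706. With voom sample weights Ythdf3 was at 0.0795 and Ythdc1 at 0.0658. With the length trend removed Hnrnpa2b1 was at -0.0024 and with the U trend removed at -0.0362. For feeding, Ythdf3 was at 0.0445 with the U trend removed, and Hnrnpa2b1 at 0.0961 and 0.1199 with the length and U trends removed. Within deficient libraries Hnrnpa2b1 was at 0.0341 and Igf2bp2 at 0.5319. With 1 library left out Hnrnpa2b1 ran from -0.0643 to 0.0215 and Igf2bp2 from -1.3354 to 0.5193. The interaction of Ythdc2 was -0.0071 without a filter and ran from -0.1381 to 0.2799 with 1 library left out, that of Ythdf3 from -0.0344 to 0.2398 and that of Ythdc1 from -0.0425 to 0.1961. The difference in Ythdf3 share ran from -4.655 to 1.448 points. By longest transcript the places were 3 for Ythdc1, 4 for Ythdf1, 5 for Ythdf3 and 6 for Ythdf2. The cause was not tested. The number of YTH genes lower in all fed libraries was 4, or 5 with scaling by library size and without WT fed replicate 3. Trend removal, shared reads, leaving out both libraries of a number, DESeq2 with the block and scaling by library size were chosen after seeing the data. The interaction could not be fitted without an unlabelled library. Depth limits Igf2bp2 and Igf2bp3.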
